A study of Homo sapiens with 12 samples.

Results

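The comparison described here is the difference between the renal carcinoma cell lines 769-P and ACHN when neither was depleted of NUF2. Its members are the 6 libraries of cells that received the control siRNA (si-NC), 3 of 769-P and 3 of ACHN, out of 12 libraries in the series. The other 6 libraries come from the same lines after an siRNA against NUF2 (si-NUF2), a subunit of the kinetochore complex that holds spindle microtubules. All cells were transfected and taken 48 h later, and RNA was sequenced and given as FPKM, fragments counted per gene, scaled for gene length and library depth. The study treats both lines as clear cell renal cell carcinoma (ccRCC) lines. Each line is a single established line, 769-P was grown in RPMI-1640 and ACHN in Eagle's MEM, both with fetal bovine serum, so a difference of the lines and a difference of the media cannot be told apart. Nothing in the sources says that replicates were separate cultures, so p-values measure the spread between these libraries only, and an exact permutation test of 3 against 3 libraries cannot go below p = 0.1.

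The files list 58302 genes, of which 15369 had 0.5 FPKM or more in at least 3 of the 6 libraries. After 478 genes on X or Y and 28 without a known chromosome were left out, 14863 were tested. Each difference below is 769-P minus ACHN on the log2(FPKM + 0.1) scale, so a negative value means a higher level in ACHN, and the scale understates differences of genes near 0. A gene was called at an adjusted p under 0.05 (limma with Benjamini-Hochberg adjustment over all genes tested). By that rule 4228 genes were higher in 769-P and 4806 higher in ACHN, 28.4% and 32.3% of those tested and 60.8% together, and 1936 and 2821 of them (13% and 19% of those tested, 32% together) differed at least 2-fold. The 3 libraries of each line did not overlap for 68.2% of genes. With upper-quartile scaling, which moves the median of all genes by 0.22, the split was 5504 to 3802. Of the tested genes, 11489 reached 0.5 FPKM in all 6 libraries, and 57.6% of these were called, 29.2% higher in 769-P and 28.4% higher in ACHN. The other tested genes include 595 that reached the filter in 769-P only and 1237 in ACHN only, which had to differ to be tested, so list counts below are given for the members present in all 6 libraries. The adjusted p of such a gene is no separate support for its difference. Genes of this kind given with a p-value below include VHL, LOX, ANPEP, KRT19, SPARC, MT1E, GSTP1, IL6, HOXB9, FGB and UCHL1. Some list members are given library by library because of their values, beyond the rule stated with the processing.

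The libraries held between 29486668 and 36362343 recovered reads, and correlated across genes at 0.986 to 0.991 within 769-P, 0.956 to 0.976 within ACHN and 0.84 to 0.857 between the lines. ACHN replicate 2 stood apart: 137 tested genes lay 4-fold or more from both other ACHN libraries, 108 of them below, against 45 to 82 for the other ACHN libraries and 46 to 60 for those of 769-P. Each ACHN si-NC library correlated more closely with the si-NUF2 library of the same number (0.984 to 0.99) than with any other si-NC library, whereas the same-numbered pairs of 769-P correlated at 0.975 to 0.984. The sources do not say what a number shares, so si-NUF2 values are given side by side and not as an independent repeat. Markers of other cell types were at or near 0. Of 21 markers of leukocyte, endothelial, fibroblast and podocyte cells, 20 were under the filter, and the list summed to 0.427 to 0.738 FPKM in 769-P and 2.41 to 4.07 in ACHN. The remaining marker, COL1A1, a fibrillar collagen, had 0.0692, 0.14 and 0.138 FPKM in 769-P and 1.14, 3.87 and 1.76 in ACHN.

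Clear cell carcinoma arises from the proximal tubule of the kidney and is known for loss of VHL, the substrate receptor of a ubiquitin ligase that marks the hypoxia-inducible factors HIF1A and EPAS1 (HIF-2α) for destruction in the presence of oxygen. Without VHL, the factors build up and switch on genes for glycolysis, vessel growth and pH control. Papillary renal carcinoma, another tubular tumor, is known for MET activity and for keratin 7. PAX8 is a transcription factor of the renal epithelium that renal tumors of either kind usually keep.

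VHL (chromosome 3, 10141008 to 10152220, forward strand of GRCh38) was listed at 0.0322, 0.0148 and 0.022 FPKM in the 3 libraries of 769-P and at 23, 15 and 23.9 in those of ACHN. The VHL transcript was near 0 in every 769-P library, and the difference was -7.40 (SE 0.21; limma, adjusted p = 1.46e-06). VHL reached the filter in ACHN only and so had to differ to be tested. In the si-NUF2 libraries VHL had 0.0165 to 0.0303 FPKM in 769-P and 14.9 to 25.1 in ACHN. The neighbouring genes BRK1 and FANCD2, chosen after their values were seen, were present in both lines. BRK1, an actin regulator, had 70, 79.1 and 81.6 FPKM in 769-P and 79.1, 59.9 and 74.4 in ACHN, and FANCD2, a DNA repair gene, had means of 4.03 ± 0.245 and 3.7 ± 0.68 (SD, n = 3). Neither was called. In bulk RNA, fewer cells with a transcript and less of it per cell cannot be told apart.

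The genes for both hypoxia factors were lower in 769-P as well. HIF1A had 2.54, 2.24 and 2.03 FPKM in 769-P and 89.6, 44.2 and 78 in ACHN, a ratio of means of 31.1 and a difference of -4.88 (SE 0.25; limma, adjusted p = 1.41e-05). EPAS1 had 1.65, 2.53 and 2.14 FPKM in 769-P and 18.5, 78.5 and 31.1 in ACHN, with a difference of -4.08 (SE 0.50; limma, adjusted p = 0.000505). The groups did not overlap for either factor, and within ACHN the libraries with more HIF1A had less EPAS1. Their partner ARNT was lower in 769-P by less, with a difference of -0.83, while the partner ARNT2 was under 0.06 FPKM in 769-P and at 2.2 to 4.87 in ACHN. CITED2, a coactivator competitor of the factors, had a difference of -2.86, and EGLN1, the prolyl hydroxylase that lets VHL bind them, one of -0.89. In the ligase complex itself, the adaptor ELOC was higher in 769-P (26.1 to 28.6 FPKM against 9.33 to 10.5), as was RBX1, the RING subunit (difference 0.74), while ELOB and CUL2 were not called, except with upper-quartile scaling (limma, adjusted p = 0.00867 and 0.0154) and, for CUL2, without ACHN replicate 3 (limma, adjusted p = 0.0473). ELOC lies on chromosome 8, whose genes had the highest median difference of any autosome (given below). Of the 15 genes of this list, 11 were in all 6 libraries, 2 of them called higher in 769-P and 5 in ACHN. The called share was 63.6%, beside 57.6% of all such genes.

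Targets of the hypoxia factors did not move in 1 direction. Of 50 listed targets, 45 were tested and 38 were in all 6 libraries. Among these 38, 10 were higher in 769-P, 14 were higher in ACHN and 14 were not called (63.2% called, beside 57.6% of all such genes), and their median difference was -0.21, beside -0.0018 for all such genes. The targets higher in 769-P included CA12, a carbonic anhydrase of the cell surface, with 46.1, 77.6 and 63.2 FPKM against 0.444, 0.259 and 0.789 in ACHN (difference 6.74, SE 0.35; limma, adjusted p = 1.35e-05). The lactate exporter SLC16A3 had 42.2, 33 and 31.9 FPKM in 769-P and 0.772, 1.01 and 1.42 in ACHN. ADM, a vasodilator peptide, had a difference of 2.95, and cyclin D1 (CCND1) had 298, 238 and 266 FPKM in 769-P and 110, 27.7 and 75.3 in ACHN. All of these groups were separate, by a wide margin for CA12 and SLC16A3.

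On the scale used here, the targets higher in ACHN were led by LOX, the collagen crosslinking oxidase. LOX had 0.159, 0.0899 and 0.106 FPKM in 769-P and 117, 33 and 115 in ACHN (difference -8.50, SE 0.48; limma, adjusted p = 1.91e-05). The glucose transporter SLC2A3 was listed at 0, 0.00506 and 0 FPKM in 769-P and at 6.8, 4.07 and 5.25 in ACHN, and NDUFA4L2, a mitochondrial subunit typical of ccRCC, at 0.0484, 0.0222 and 0.011 against 2.55, 4.08 and 3.25. ANGPTL4, an inhibitor of lipoprotein lipase, had 1.4, 1.19 and 0.833 FPKM in 769-P and 29, 12.1 and 30.3 in ACHN. STC2, PLOD2, DDIT4 and AK4 were also higher in ACHN, with differences from -3.68 to -2.17. VEGFA, the vessel growth factor, had 4.03, 4.59 and 3.94 FPKM in 769-P and 13.5, 4.32 and 6.98 in ACHN, so the groups overlapped through ACHN replicate 2 (difference -0.86, SE 0.37; limma, adjusted p = 0.0817), and without that library it was called (difference -1.23; limma, adjusted p = 0.00913). CA9, the carbonic anhydrase used as a ccRCC marker, was at 0.0185 to 0.0373 FPKM in 769-P and 0.0191 to 0.0681 in ACHN, under the filter in both, as were EGLN3, CXCR4 and EPO.

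The hypoxia factors bind the core sequence ACGTG, which was searched on both strands (CACGT on the other strand, with CACGTG counted as a match on each) in the RefSeq promoter of 300 bases around each start (GRCh38.p14, 250 bases before to 50 after). A promoter was matched for 35 of the 45 tested targets and for 9372 of 14778 tested symbols. The core was in 57.1% of the matched target promoters and in 26.9% of all matched promoters. Among targets it was in 6 of 10 promoters of genes higher in 769-P and in 10 of 16 of those higher in ACHN. These shares are descriptions of the letters in this window only. The match nearest the start, with 12 bases on each side and the core in capitals, is shown for the 3 called targets with the lowest and the 3 with the highest difference among those that held one, all with the gene's strand written 5′ to 3′.
LOX (chr5:122078285-122078313, reverse strand): gtaactttgcaaACGTGccagaaagttta
ANGPTL4 (chr19:8363909-8363937, forward strand): ggaaagaagagtCACGTctcccacggttc
PLOD2 (chr3:146161314-146161342, reverse strand): caaacagtccagACGTGgggcccaggagg
ALDOC (chr17:28576907-28576935, reverse strand): ccccggaggagtCACGTagctctgcgaca
FAM162A (chr3:122384086-122384114, forward strand): cagcgcgtggcgCACGTcctacacgcccc
ALDOA (chr16:30064089-30064117, forward strand): ccttcccctccaCACGTcaacgattctat
LOX, ANGPTL4 and PLOD2 were higher in ACHN, and ALDOC, FAM162A and ALDOA, a brain-type aldolase, a mitochondrial protein and the muscle-type aldolase, were higher in 769-P.

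PAX8 was present in both lines and was not called with all libraries. PAX8 had 70.6, 58.6 and 69.8 FPKM in 769-P and 199, 57.1 and 144 in ACHN, so ACHN replicate 2 fell below the 769-P libraries (difference -0.88, SE 0.42; limma, adjusted p = 0.108). Without that library PAX8 was called (difference -1.39; limma, adjusted p = 0.000727). PAX2, the paralog of PAX8 that acts early in the nephron, was higher in ACHN, at 14.3, 23.8 and 17.8 FPKM against 5.52, 8.06 and 6.07 (difference -1.52, SE 0.23; limma, adjusted p = 0.00124). HNF4A, a factor of the mature proximal tubule, was listed at 0 in all 6 libraries. Other factors differed more. EMX1 and WT1 were at 4.13 to 4.7 and 1.77 to 2.37 in 769-P and under 0.05 in ACHN. In the other direction, IRX2 was listed at 0 in 769-P and at 1.59 to 2.35 in ACHN, and OSR1 and POU3F3, of nephron precursors and of the loop of Henle and distal tubule, were higher in ACHN, with differences of -2.93 and -2.08. Of 30 factors, 13 were in all 6 libraries, with 5 called higher in 769-P, 3 in ACHN and 5 not called. The called share was 61.5%, beside 57.6% of all such genes.

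Markers of the proximal tubule, where peptides, amino acids and phosphate are taken back from the filtrate, were mostly higher in 769-P. Of 34 markers, 16 were under the filter, among them the endocytic receptors LRP2 and CUBN and the water channel AQP1. All 7 markers in all 6 libraries were called higher in 769-P, with a median difference of 2.68, beside 29.2% of all such genes called in that direction. ANPEP, the brush border aminopeptidase, had 22.7, 30.7 and 35.2 FPKM in 769-P and 0.0327, 0.00533 and 0 in ACHN (difference 8.01, SE 0.21; limma, adjusted p = 1.3e-06). SLC3A1, the cystine transporter subunit, had 24.3, 49.7 and 49.2 FPKM against 2.74, 2.59 and 1.69, and GGT1, which cleaves glutathione, had 92.5, 114 and 105 against 24.9, 21.5 and 25. HAVCR1 (KIM-1), a marker of tubule injury, was nearer, at 147 to 171 against 89.2 to 102 FPKM. CDH6, the cadherin of the proximal tubule, had 3.68, 6.63 and 8.19 FPKM in 769-P and 0, 0.0021 and 0 in ACHN. VCAM1, GATM and SLC13A3 were higher in ACHN, and VCAM1 had 0.0674, 0.273 and 0.199 FPKM in 769-P and 18.6, 7.13 and 37.6 in ACHN. Of 22 markers of the distal nephron and collecting duct, 16 were under the filter. CLDN16, a paracellular magnesium channel of the thick ascending limb, was the exception in level, with 158, 114 and 158 FPKM in ACHN and 3.38, 2.94 and 3.9 in 769-P (difference -5.39, SE 0.16; limma, adjusted p = 1.6e-06). CDH16, the kidney-specific cadherin, was higher in 769-P, at 8.04, 12.4 and 9.14 FPKM against 1.38, 5.24 and 2.57.

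The labels of tumor type were set against marker lists. Of 18 clear cell markers, 14 were tested and 9 were in all 6 libraries, 1 called higher in 769-P (CCND1), 3 in ACHN and 5 not called (44.4% called, beside 57.6% of all such genes). Beside CA9 and EGLN3, which were under the filter in both lines, NNMT, a nicotinamide methyltransferase abundant in ccRCC, had 0.919, 1.22 and 1.5 FPKM in 769-P and 96.9, 105 and 90.2 in ACHN. CD70, a ligand of lymphocytes that ccRCC often carries, had 52.3, 44.9 and 45.8 FPKM in 769-P and 63.5, 30.4 and 46.4 in ACHN, with no call. Of 13 papillary markers, 12 were tested and 7 were in all 6 libraries, with 1 called higher in 769-P and 2 in ACHN (42.9% called). KRT7 had 3.08, 2.02 and 2.38 FPKM in 769-P and 21.3, 9.62 and 25.3 in ACHN (difference -2.81, SE 0.36; limma, adjusted p = 0.000598). SLC34A2, a phosphate transporter, had 0.0145, 0 and 0.0131 FPKM in 769-P and 135, 57.2 and 91.7 in ACHN. AMACR, a peroxisomal racemase, went the other way, with 6.96, 19.3 and 16.9 FPKM in 769-P and 0.843, 1.23 and 0.781 in ACHN. MET had 98.4, 90.1 and 106 FPKM in 769-P and 122, 101 and 144 in ACHN, an overlap, and was not called with all libraries (difference -0.35, SE 0.14; limma, adjusted p = 0.0661), though it was without ACHN replicate 2 (difference -0.46; limma, adjusted p = 0.0181). Set against the clear cell label, CA9 was near 0 in both lines and VHL was near 0 in 769-P only. The clear cell markers NDUFA4L2, NNMT, VCAM1, ANGPTL4, ENPP3 and IGFBP3 were called higher in ACHN, and CCND1, CP and MME higher in 769-P. CP, which oxidizes iron, had 1.92, 2.63 and 1.56 FPKM in 769-P and 0.0262, 0.0391 and 0.0312 in ACHN, and MME, the peptidase CD10, had 1.09, 2.67 and 2.66 against 0.0364, 0.00539 and 0.00591.

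Epithelial genes were called in both directions. Of 46, 26 were in all 6 libraries, 8 called higher in 769-P, 6 in ACHN and 12 not called (53.8% called, beside 57.6% of all such genes). KRT19, a simple epithelial keratin, had 0.218, 0.174 and 0.159 FPKM in 769-P and 380, 242 and 210 in ACHN (difference -9.93, SE 0.22; limma, adjusted p = 1.03e-06). CDH1 (E-cadherin) was listed at 0.0055, 0 and 0 FPKM in 769-P and at 10.1, 5.28 and 4.69 in ACHN, and EPCAM had 0.728, 1.06 and 0.711 against 8.85, 19.3 and 15.6. In the other direction, SPINT2, an inhibitor of surface serine proteases, had 83.7, 78.1 and 91 FPKM in 769-P and 0.0797, 0.22 and 0.169 in ACHN, and the tight junction protein CLDN4 had 82.3, 69.6 and 78.1 against 0.827, 0.59 and 0.502. Its relative CLDN1 was higher in ACHN, at 502, 177 and 484 FPKM against 61.8, 58.5 and 69.8. KRT8 and KRT18, the keratin pair of simple epithelia, overlapped and were not called with all libraries, though KRT8 was called without ACHN replicate 1 (difference -0.75; limma, adjusted p = 0.00593). The epithelial splicing and transcription factors ESRP1, ESRP2, GRHL2, OVOL1 and OVOL2 were under the filter in both lines.

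Both lines also carried mesenchymal genes. VIM, the intermediate filament vimentin, had 163, 134 and 136 FPKM in 769-P and 154, 126 and 176 in ACHN, and ZEB1, a repressor of E-cadherin, had 3.1, 2.72 and 4.18 against 2.99, 2.01 and 2.88. Neither was called. CDH2 (N-cadherin) was higher in 769-P, at 65.5, 69.7 and 77.2 FPKM against 41.5, 31.1 and 46.4 (difference 0.81, SE 0.15; limma, adjusted p = 0.00358). The surface protein THY1 had 0.00573, 0.00526 and 0 FPKM in 769-P and 45.9, 57.6 and 53.2 in ACHN, and TGFB2 and CDH13 were also at or under 0.0198 in 769-P. Of 31 mesenchymal genes, 12 were in all 6 libraries, 4 called in each direction (66.7% called, beside 57.6% of all such genes).

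**Figure D1:**
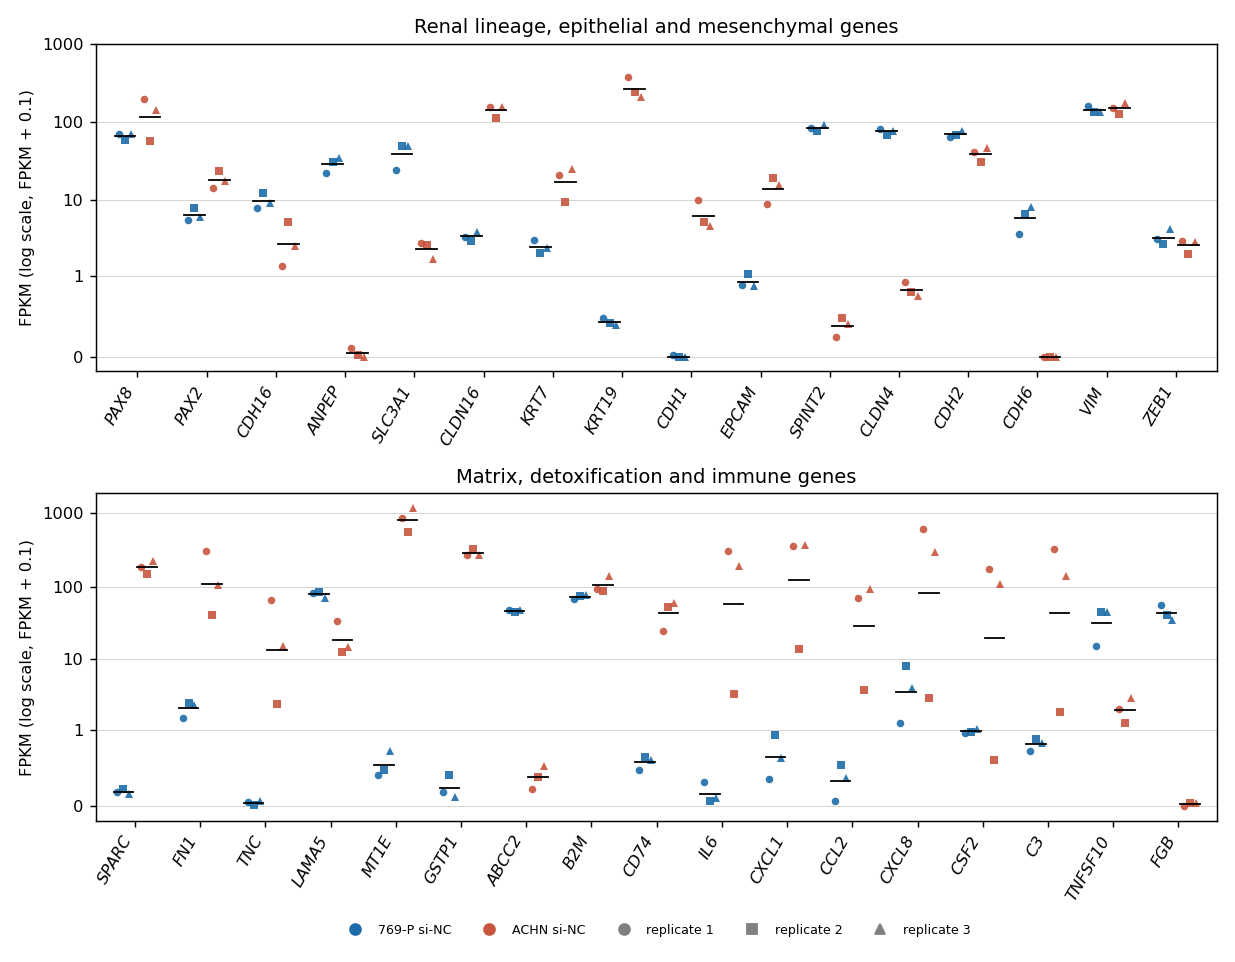
FPKM in each si-NC library (y axis, log scale of FPKM + 0.1) of lineage, epithelial and mesenchymal genes (top) and matrix, detoxification and immune genes (bottom); blue is 769-P, red is ACHN, shapes are replicates and black lines mark the mean on that scale. VIM and ZEB1 overlap, KRT19 and SPARC are under 0.3 FPKM in 769-P and above 140 in ACHN, and ACHN replicate 2 (red square) lies far below the other ACHN libraries for IL6, CXCL8, CSF2 and C3.

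Matrix genes were higher in ACHN for the most part. Of 57 structural genes, 39 were tested, and 14 of these reached the filter in 1 line only, 13 of them in ACHN. Among the 22 in all 6 libraries, 13 were called higher in ACHN and 4 in 769-P, with a median difference of -1.20. The called share was 77.3%, beside 57.6% of all such genes. SPARC, a collagen-binding protein, had 0.0562, 0.071 and 0.0447 FPKM in 769-P and 187, 148 and 221 in ACHN (difference -10.22, SE 0.16; limma, adjusted p = 4.05e-07). Fibronectin (FN1) had 1.51, 2.45 and 2.32 FPKM in 769-P and 304, 40.3 and 104 in ACHN, and tenascin C (TNC) had 0.0141, 0.00324 and 0.016 against 64.8, 2.36 and 15.5. The TNC difference was -6.96 with all libraries and -8.19 without ACHN replicate 2. The basement membrane collagens COL4A1 and COL4A2 were abundant in both lines and higher in ACHN, COL4A1 at 92.4, 141 and 140 FPKM against 37.5, 35.1 and 33.6. THBS1 and CCN2 were higher in ACHN as well, with 117, 356 and 237 FPKM of THBS1 against 14.2, 10 and 9.79. The tested genes higher in 769-P were LTBP1, FBLN1, LAMA5, NID1, VCAN and COL18A1, and the VCAN call was lost in 4 of the 6 fits that left out a library (limma, adjusted p = 0.0724 to 0.0987). The VCAN call was also lost with no filter on low values (limma, adjusted p = 0.056). Laminin α5 (LAMA5) had 82.6, 85.4 and 69.1 FPKM in 769-P and 33.3, 12.5 and 15 in ACHN (difference 2.05, SE 0.34; limma, adjusted p = 0.00197), and LTBP1, which holds latent TGF-beta, had 2.63, 2.97 and 2.7 against 0.0435, 0.0106 and 0.0155.

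More genes of matrix remodelling were called higher in ACHN than in 769-P, and some of them, such as LOX, PLOD2 and P4HA1, are also listed as hypoxia factor targets. Of 34, 17 were in all 6 libraries, with 8 called higher in ACHN and 3 in 769-P (64.7% called, beside 57.6% of all such genes). Of all such genes, 28.4% were called higher in ACHN and 29.2% in 769-P. Beside LOX, its relatives LOXL4 and LOXL1 were near 0 in 769-P, LOXL4 with 0.167, 0.0427 and 0.203 FPKM against 21.6, 34 and 28.4. PLAU, the urokinase protease, had 28.4, 24.6 and 32.3 FPKM in 769-P and 167, 59.2 and 281 in ACHN, and its receptor PLAUR had 2.03, 1.22 and 1.49 against 16.7, 4.6 and 17.6. SPOCK1, a testican, had 53.8, 48.3 and 60.8 FPKM in 769-P and 15.6, 2.67 and 5.7 in ACHN. Of 19 integrin genes, 12 were in all 6 libraries, 2 called higher in 769-P, 4 in ACHN and 6 not called (50% called, beside 57.6%). ITGA4 had 0.0731, 0.0671 and 0.043 FPKM in 769-P and 5.14, 6.02 and 7.76 in ACHN, ITGB6 had 5.66, 4.55 and 4.39 against 11.5, 35.3 and 41.8, and the common partner ITGB1 was higher in 769-P (difference 0.61).

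**Figure D2:**
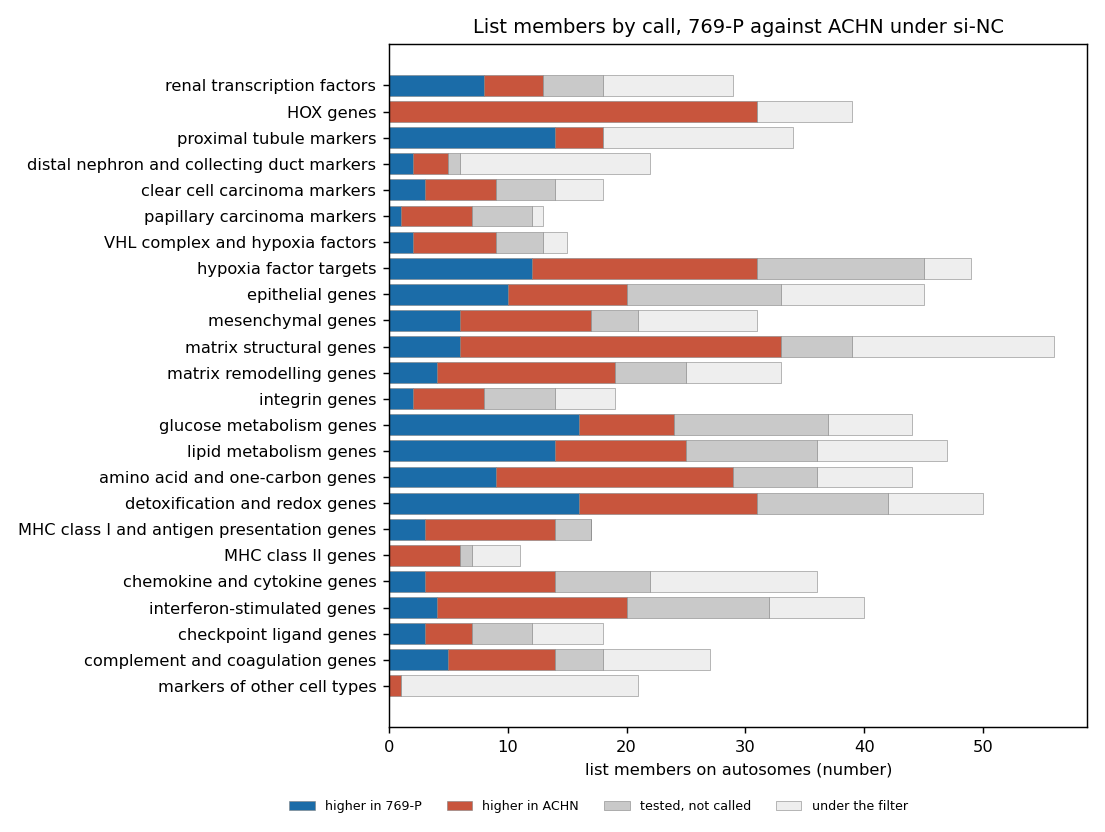
Number of autosomal members of each of the 24 gene lists (x axis) called higher in 769-P (blue), called higher in ACHN (red), tested and not called (grey) or under the filter (pale). HOX genes, MHC class II genes and the marker COL1A1 of other cell types were called in ACHN's direction only, though 21 of the 31 HOX and 4 of the 7 class II genes tested reached the filter in ACHN only and so had to differ.

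In glucose metabolism, the glycolytic enzymes GPI, PFKP, ALDOA, ALDOC, PGAM1, ENO2, PKM, LDHA and LDHB were called higher in 769-P. PFKM was called higher in ACHN, and HK1, HK2, PFKL, TPI1 and ENO1 were not called. Of 47 genes, 32 were in all 6 libraries, 14 called higher in 769-P, 5 in ACHN and 13 not called. The called share of 59.4% was near the 57.6% of all such genes, of which 29.2% were called higher in 769-P and 28.4% in ACHN. Over the 37 tested, 16 were higher in 769-P and 8 in ACHN, and 20 and 6 with upper-quartile scaling. ALDOA had 305, 299 and 291 FPKM in 769-P and 154, 147 and 136 in ACHN (difference 0.99, SE 0.08; limma, adjusted p = 9.83e-05). PKM, the last enzyme of glycolysis, had 535, 533 and 572 FPKM against 338, 255 and 304, and LDHA, which makes lactate, had 209, 212 and 210 against 134, 111 and 126. GAPDH had 1212 to 1300 FPKM in 769-P and 1044 to 1054 in ACHN, with no overlap. It was not called with the scaling used here, and was called with median-ratio or upper-quartile scaling, all 12 libraries or limma-voom (adjusted p = 0.0409, 0.00552, 0.0124 and 0.0423). Among glucose transporters, SLC2A3 (values above) and SLC2A1 were higher in ACHN and the tubule transporter SLC2A2 was higher in 769-P. SLC2A2 had 14.4, 23.5 and 28.9 FPKM in 769-P and 1.07, 1.72 and 0.433 in ACHN, and SLC2A1 had 22.3, 21.7 and 17.1 FPKM in 769-P and 25.4, 26.2 and 26.5 in ACHN. The SLC2A1 call (limma, adjusted p = 0.0244) was lost without ACHN replicate 2 (limma, adjusted p = 0.0534) or 3 (limma, adjusted p = 0.0641), and with upper-quartile scaling (limma, adjusted p = 0.243). PYGL, which breaks down glycogen, had 2.6, 2.56 and 2 FPKM in 769-P and 29.1, 24.9 and 22.9 in ACHN, and PFKFB2 a difference of -3.26.

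Lipid genes were called in both directions, and more amino acid genes were called higher in ACHN than in 769-P. Of 47 lipid genes, 32 were in all 6 libraries, 13 called higher in 769-P and 8 in ACHN, with a median difference of 0.53. The called share was 65.6%, beside 57.6% of all such genes, of which 29.2% were called higher in 769-P and 28.4% in ACHN. Over the 36 lipid genes tested, 14 were higher in 769-P and 11 in ACHN. These counts were 10 and 9 without 769-P replicate 2, and 17 and 7 with upper-quartile scaling. PPARGC1A, a coactivator of mitochondrial genes, had 7.97, 9.13 and 9.46 FPKM in 769-P and 0.278, 0.296 and 0.128 in ACHN. SQLE, of cholesterol synthesis, had 33, 37.1 and 43.6 FPKM against 11.7, 9.17 and 10.1. SQLE and DGAT1 lie on chromosome 8. APOE, FABP3 and ELOVL2 were called higher in ACHN. Of 44 amino acid and one-carbon genes, 30 were in all 6 libraries, 16 called higher in ACHN and 8 in 769-P, with a median of -0.55. Here 80% were called, beside the same 57.6%. The serine synthesis enzymes PHGDH and PSAT1 had 2.7 to 3.29 and 56.7 to 73.2 FPKM in 769-P and 17.6 to 34.4 and 171 to 212 in ACHN, and MTHFD2, ASNS and the transporter SLC7A5 were likewise higher in ACHN. BCAT1, a branched-chain aminotransferase, had 0.482, 0.342 and 0.344 FPKM in 769-P and 20.6, 27.2 and 24.1 in ACHN. ASS1, which makes the precursor of arginine, was higher in 769-P, at 12.2, 16.9 and 19.1 FPKM against 2.05, 2.26 and 4.59. The culture media differ in their amino acids, so for these genes line and medium cannot be told apart.

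On the scale used here, detoxification genes held the 2 lowest differences of all genes with at least 5 FPKM in the higher line. The order near 0 depends on the settings: over the alternatives the lowest value was -11.66 for MT1E, -11.90 for GSTP1 and -13.20 for THY1. MT1E, a metallothionein that binds zinc and copper, had 0.161, 0.207 and 0.47 FPKM in 769-P and 859, 553 and 1175 in ACHN (difference -11.21, SE 0.36; limma, adjusted p = 2.17e-06). GSTP1, a glutathione transferase, had 0.0532, 0.163 and 0.0322 FPKM against 266, 323 and 269 (difference -10.70, SE 0.26; limma, adjusted p = 1.03e-06). MT1M was listed at 0, 0.0331 and 0 FPKM in 769-P and at 124, 60.3 and 233 in ACHN, whereas MT2A was present in both, at 95.8 to 200 against 627 to 1752. ABCC2, UGT1A6 and AKR1C3 were higher in 769-P. ABCC2, an efflux pump of conjugates, had 47.8, 45.4 and 47.7 FPKM in 769-P and 0.0716, 0.15 and 0.246 in ACHN, UGT1A6 had 11.4, 11.6 and 11.6 against 0.00615, 0.00501 and 0, and AKR1C3, a steroid-reducing enzyme, had 47.6, 76.5 and 76 against 3, 3.53 and 2.91. GSTM1 was listed at 2.81, 3.08 and 2.35 FPKM in 769-P and at 0 in all 3 ACHN libraries. Metallothioneins, GSTM, AKR1C and UGT1A genes have close relatives or share exons, so how reads were divided among them is uncertain. Of 51 genes of the list, 27 were in all 6 libraries, 9 called in each direction (66.7% called, beside 57.6% of all such genes).

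Antigen presentation genes were detected in both lines and mostly higher in ACHN. All 17 listed genes of MHC class I presentation were tested. Of the 16 in all 6 libraries, 10 were called higher in ACHN and 3 in 769-P, with a median difference of -0.77. The called share was 81.2%, beside 57.6% of all such genes. HLA-B and HLA-C were higher in ACHN, with differences of -0.97 and -0.66. These genes are near-identical in parts, so their separate levels are uncertain. B2M, the shared light chain, had 67.9, 74.5 and 76.7 FPKM in 769-P and 92.8, 88 and 138 in ACHN (difference -0.56, SE 0.18; limma, adjusted p = 0.0302), and that call was lost when any 769-P library was left out (limma, adjusted p = 0.0653 to 0.0941). The B2M call was also lost with upper-quartile scaling or no filter on low values (limma, adjusted p = 0.147 and 0.0607). ERAP2, a peptide-trimming enzyme, was higher in 769-P, and the immunoproteasome subunit PSMB9 was higher in ACHN, at 24.2, 26.4 and 39.8 FPKM against 4.18, 4.2 and 5.4. Of the 14 called class I genes, 7 were called in the same direction in the si-NUF2 libraries, beside 88.4% of all calls tested under both. In class II, whose HLA genes also have close relatives, 4 of the 7 tested genes reached the filter in ACHN only, and the invariant chain CD74 had 0.213, 0.372 and 0.33 FPKM in 769-P and 24.6, 52.9 and 60.4 in ACHN. The class II chain HLA-DRA and the activator CIITA were under the filter in both lines.

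IL6, CXCL1 and CCL2 were far higher in ACHN replicates 1 and 3 than in the other si-NC libraries. IL6 had 0.115, 0.0151 and 0.0298 FPKM in 769-P and 303, 3.31 and 193 in ACHN (difference -8.66, SE 1.59; limma, adjusted p = 0.00311), CXCL1 had 0.131, 0.818 and 0.357 against 356, 14.1 and 365, and CCL2 had 0.0171, 0.267 and 0.14 against 69.9, 3.78 and 92.8. With limma-voom on recovered reads IL6 and CCL2 were not called (adjusted p = 0.157 and 0.0739). In each of these ACHN replicate 2 was the lowest ACHN library and still above 769-P. For CXCL8 (interleukin 8) it was not: 1.24, 8.05 and 4.02 FPKM in 769-P stood against 618, 2.92 and 293 in ACHN, and the gene was not called (limma, adjusted p = 0.0781). CSF2, the granulocyte and macrophage growth factor, had 0.906, 0.911 and 1.02 FPKM against 173, 0.33 and 108 and was not called either (limma, adjusted p = 0.121). Without ACHN replicate 2, CXCL8 and CSF2 had differences of -6.94 and -7.06 (limma, adjusted p = 0.000532 and 1.01e-05), and IL6 one of -10.70. The same library number was low under si-NUF2 too, where IL6 was 249, 3.04 and 196 FPKM in the 3 ACHN libraries. TNFSF10 (TRAIL), a death ligand, was higher in 769-P, at 15.5, 44.9 and 44.5 FPKM against 2.01, 1.26 and 2.93, and CXCL12 was listed at 0.581, 1.59 and 1.82 against 0. Of 36 genes of the list, 12 were in all 6 libraries, 6 called higher in ACHN, 1 in 769-P and 5 not called. The called share was 58.3%, beside 57.6% of all such genes. Over all tested members the count higher in ACHN was 11 with all libraries and 16 without ACHN replicate 2.

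Complement component C3 showed the same division, with 0.469, 0.73 and 0.63 FPKM in 769-P and 323, 1.81 and 139 in ACHN, and its call (difference -6.01, SE 1.76; limma, adjusted p = 0.0223) was lost when any library other than ACHN replicate 2 was left out (limma, adjusted p = 0.0558 to 0.0745). The C3 call was also lost with limma-voom on recovered reads (adjusted p = 0.0608). TFPI2, a protease inhibitor, was high in every ACHN library, at 166, 87.8 and 216 FPKM against 0.969, 1.45 and 1.14. FGB, the fibrinogen β chain, had 56.4, 41 and 35.3 FPKM in 769-P and 0, 0.00958 and 0.0105 in ACHN (difference 8.65, SE 0.20; limma, adjusted p = 1.03e-06), while FGA and FGG, the other chains, were under the filter in both lines. The complement regulator CFI was higher in 769-P, at 9.54, 25.8 and 21.4 FPKM against 0.148, 2.22 and 1.62. Of 28 complement and coagulation genes, 11 were in all 6 libraries, 6 called higher in ACHN and 2 in 769-P. The called share was 72.7%, beside 57.6% of all such genes.

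More interferon-stimulated genes were called higher in ACHN than in 769-P. Of 40, 27 were in all 6 libraries, 14 called higher in ACHN, 2 in 769-P and 11 not called. The called share of 59.3% was near the 57.6% of all such genes, of which 28.4% were called higher in ACHN and 29.2% in 769-P. IFITM2, GBP3 and TRIM22 were higher in ACHN, with differences from -4.30 to -3.78. IFITM1, BST2 and IRF7 were higher in 769-P, BST2 at 4.1, 6.58 and 2.46 FPKM against 0.114, 0.371 and 0.813. ISG15, a ubiquitin-like modifier, had 18.9, 13.7 and 6.56 FPKM in 769-P and 11.1, 13.2 and 14.7 in ACHN and was not called. Of its 20 called members, 9 were called in the same direction under si-NUF2, beside 88.4% of all calls tested under both, and there ISG15 had 89.3, 97.3 and 23.5 FPKM in 769-P and 11.2, 11.3 and 14.8 in ACHN. The interaction of line and siRNA called 0 of the genes tested in limma (712 at an unadjusted p under 0.05, lowest adjusted p 0.787). With the replicate number within each line as a block, chosen after seeing the data, limma called 271 genes, 1.82% of those tested (3078 at an unadjusted p under 0.05, lowest adjusted p 0.0177). These included 16 of the 32 tested interferon-stimulated genes, all with a lower 769-P minus ACHN difference under si-NC than under si-NUF2, ISG15 among them (limma, adjusted p = 0.0241 with the block and 0.915 without). Among checkpoint ligands, 8 of 18 were in all 6 libraries, 2 called higher in 769-P and 1 in ACHN. The called share of 37.5% was below the 57.6% of all such genes. HHLA2 had 2.49, 4.93 and 4.95 FPKM in 769-P and 0.0176, 0 and 0.0235 in ACHN, and PDCD1LG2 (PD-L2) had 0.0287, 0 and 0 against 4.67, 1.4 and 9.6. CD274 (PD-L1) had 0.388, 0.41 and 0.504 FPKM in 769-P and 2.8, 1.11 and 3.31 in ACHN (difference -2.14, SE 0.39; limma, adjusted p = 0.00287).

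The HOX genes, which give cells their position along the body axis and lie in 4 clusters, went in the same direction wherever they were tested. Of 39 genes, 31 were tested and all 31 were called higher in ACHN, but 21 of these reached the filter in ACHN only. The 9 in all 6 libraries were also all called higher in ACHN, with a median difference of -1.40, beside 28.4% of all such genes called in that direction. Most of these 9 were HOXA genes of chromosome 7, where 56.3% of the genes in all 6 libraries were called higher in ACHN. The HOXB cluster was near 0 in 769-P. Its 10 genes summed to 0.0202 to 0.081 FPKM in the 769-P libraries and to 97.7 to 117 in those of ACHN. HOXB9 had 0.0263, 0.0242 and 0.012 FPKM in 769-P and 29.6, 24.8 and 22.3 in ACHN (difference -7.75, SE 0.16; limma, adjusted p = 8.38e-07), and HOXB7 was listed at 0 in all 3 libraries of 769-P and at 15.5, 16.7 and 16.5 in ACHN. The HOXA cluster was present in both except for HOXA7, HOXA11 and HOXA13, which were near 0 in 769-P, summing to 21.3 to 22.7 FPKM in 769-P and 86.1 to 151 in ACHN, with HOXA9 at 6.57, 7.03 and 6.75 against 31.5, 63 and 38. HOXA lies on chromosome 7, whose genes were lower in 769-P in general (given below). HOXC9 and HOXD8 were the members of their clusters above 2 FPKM in every 769-P library, at 2.61 to 3.84 and 3.65 to 4.39. In the si-NUF2 libraries 30 of the 31 calls were made in the same direction.

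**Figure D3:**
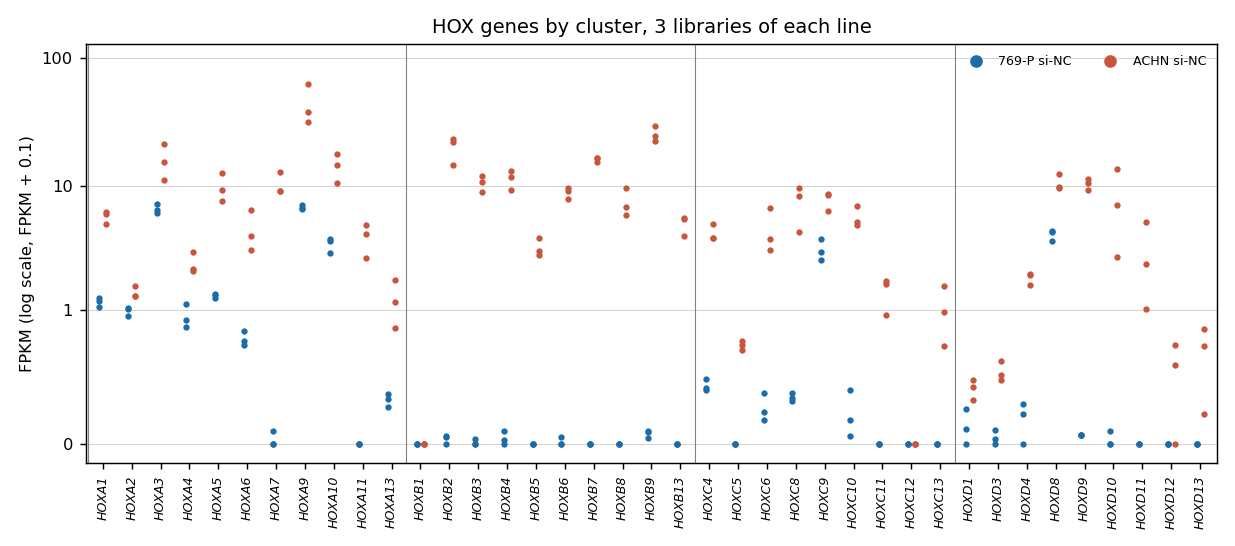
FPKM (y axis, log scale of FPKM + 0.1) of the 39 HOX genes in order within the A, B, C and D clusters (x axis), 1 point for each si-NC library, 769-P in blue and ACHN in red. Every HOXB gene is at or near 0 in 769-P, and most HOXA genes, HOXC9 and HOXD8 are present in both lines, with HOXA7, HOXA11 and HOXA13 near 0 in 769-P.

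A scan for neighbouring genes, added after the data had been seen, looked for runs of at least 3 consecutive expressed protein-coding genes below a mean of 0.1 FPKM in 1 line and at 1 or more in the other. The longest was 11 genes on chromosome 17 (48133440 to 48817214), from SKAP1 through HOXB2 to HOXB13 and TTLL6, expressed in ACHN. TTLL6, which is no HOX gene, had 0.02, 0.0122 and 0.0182 FPKM in 769-P and 9.26, 9.59 and 7.86 in ACHN. There were 11 runs expressed in ACHN, including parts of the HOXC and HOXD clusters and the stratified keratin genes KRT6A, KRT5, KRT14, KRT16 and KRT17, which have close relatives. The 3 runs expressed in 769-P included 4 genes of chromosome 9 (20341665 to 21937651), MLLT3, FOCAD, KLHL9 and MTAP. MTAP, which salvages methionine, had 1.83, 1.85 and 1.74 FPKM in 769-P and was listed at 0 in all 3 ACHN libraries, and KLHL9 had 5.48, 5.97 and 6.53 against 0.00558, 0 and 0. Of the cell cycle inhibitors beside them, CDKN2A was at 0.133 to 0.235 FPKM in 769-P and 0.177 to 0.486 in ACHN, under the filter in both, and CDKN2B had 0.887, 0.93 and 1.31 against 35.1, 5.78 and 12.2. The DNA of the lines was not analysed here.

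Differences were also unequal across chromosomes. Over genes present in all 6 libraries, the median difference was 0.66 on chromosome 8 (425 genes, SD between replicates 0.069) and -0.51 on chromosome 7 (643 genes, SD 0.025). On chromosome 8, 60% of these genes were called higher in 769-P, and on chromosome 7 7.78% were, beside 29.2% of all genes present in all 6 libraries. Chromosomes 5, 20, 9 and 4 had medians from 0.36 to 0.44, and chromosomes 12, 14 and 2 medians of -0.45, -0.45 and -0.32. The si-NUF2 libraries gave 0.63 for chromosome 8 and -0.51 for chromosome 7. Chromosomes 7 and 8 were also at the ends of the range with FPKM as deposited and over genes with a mean of at least 5 FPKM.

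**Figure D4:**
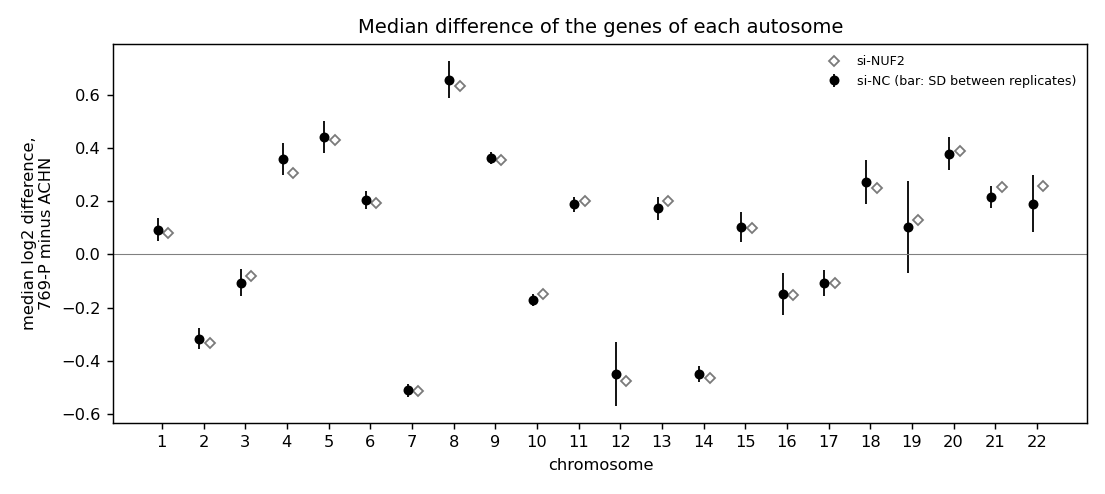
Median log2 difference, 769-P minus ACHN (y axis), of the genes of each autosome (x axis) with at least 0.5 FPKM in all 6 libraries; filled points are si-NC with the SD between replicates, open diamonds are si-NUF2. Chromosome 8 is highest at 0.66 and chromosome 7 lowest at -0.51, and both siRNAs give nearly the same values.

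At the ends of all called genes with at least 5 FPKM in the higher line, several belong to no list. Among the 12 highest in 769-P were UCHL1, a neuronal ubiquitin hydrolase, with 64.8, 56.9 and 62.3 FPKM against 0.0419, 0.0227 and 0.0374 in ACHN (difference 8.81, SE 0.13; limma, adjusted p = 4.05e-07), UPK1B, a urothelial plaque protein, the betaine methyltransferase BHMT2, the ligand WNT7B and the inhibitor of differentiation ID4. DPYSL3, of growth cones, was present in both lines but had 329, 243 and 315 FPKM in 769-P and 1.97, 0.67 and 1.24 in ACHN. GGT4P, a pseudogene close to GGT1, was among them, and its reads may be shared. Among the 12 lowest were CAVIN1, the coat protein of caveolae, with 0.302, 0.0733 and 0.177 FPKM in 769-P and 259, 182 and 310 in ACHN, H1F0, a linker histone, RAB34 and SCRN1. NUF2 itself had 19.4, 17.8 and 17.8 FPKM in 769-P and 11.6, 15 and 14.8 in ACHN (difference 0.37, SE 0.13; limma, adjusted p = 0.0446), and that call was lost when any library other than ACHN replicate 2 was left out (limma, adjusted p = 0.0538 to 0.13). The NUF2 call was also lost with a replicate block, all 12 libraries in 1 fit, no filter or no variance trend (limma, adjusted p = 0.0794, 0.229, 0.0721 and 0.0669). HMGA2, an architectural chromatin protein that the study also follows, had 28.7, 29.2 and 37.2 FPKM in 769-P and 51.7, 18.2 and 34.8 in ACHN and was not called.

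In the 6 si-NUF2 libraries, which were not treated as an independent repeat, 14353 of the genes were also tested. Of 8769 genes called under si-NC, 7754 were called in the same direction under si-NUF2, 88.4% of the first and 88.3% of the second set of calls, beside 61.2% of all genes called under si-NUF2, and 1 was called in the opposite direction.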

How the data were processed

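RNA of 12 libraries was sequenced, and the 6 si-NC libraries were compared. According to the submitters' processing notes, the authors aligned reads to hg38 with HISAT2 2.0.5 and counted them with featureCounts 1.5.0-p3; the annotation release and strand setting are not given in the sources used here, so antisense and overlapping genes cannot be told apart. The deposited values are FPKM, computed by the authors per gene and library. They were scaled by trimmed means of ratios, and log2(FPKM + 0.1) was tested with limma 3.58.1 (R 4.3.3; trended eBayes, Benjamini-Hochberg adjustment) for genes at 0.5 FPKM or more in at least 3 libraries. Printed FPKM are as deposited. Of values worth at most 2000 reads, 96.1% came out within 0.05 reads of a whole number, and these reads gave the depths. On simulated data for this comparison, 89% of 200 genes changed by 1 on the log2 scale among 14583 were recovered. The simulation gave both lines the same dispersion, no outlying library and few changed genes. In the data the median SD (log2) was 0.146 in 769-P and 0.218 in ACHN, so that share does not carry over to them. Groups came from the labels. Within each line, deviations of same-numbered si-NC and si-NUF2 libraries from their group means correlated at 0.174 to 0.706 and those of other numbers at -0.525 to -0.0234. Deviations from a mean of 3 libraries cancel out, so the negative values follow in part from the positive ones and are no separate evidence. Given the same-numbered values, the interaction of line and siRNA was also fitted with that number as a block.

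Values in every library were given for a fixed set of renal, hypoxia, epithelial and immune genes, for up to 3 called members at each end of a list, and for the 12 highest and 12 lowest differences with 5 FPKM or more in the higher line. Other genes given by library, the run scan and the motif search were chosen after values were seen. Members and lists were chosen with earlier results of these data known. Alternatives changed the scaling, pseudocount, filter, threshold, variance prior, samples, block and test, or left out each library. Promoters came from RefSeq (GRCh38.p14). Some genes of the rule and lists are not reported here.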

Additional observations from a re-analysis of the deposited data

Results flagged for a closer look

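The line difference changed with the siRNA for some genes named above. The value tested was the 769-P minus ACHN difference under si-NC minus the same difference under si-NUF2 (log2), in limma over all 12 libraries with the replicate number within each line as a block, chosen after seeing the data; without the block no gene was called. Interferon-stimulated genes had the lowest values, -2.93 for BST2, -2.37 for ISG15 and -1.80 for IRF7 (limma, adjusted p = 0.0394, 0.0241 and 0.0321). The matrix gene THBS1 had -1.13, CD70 -0.86, KRT7 -0.85, CITED2 -0.69, AKR1C3 -0.49 and HLA-C -0.37 (limma, adjusted p = 0.0292 to 0.0411). Values above 0, for a 769-P minus ACHN difference that was larger under si-NC, were 0.95 for ADM, 0.72 for CLDN4, 0.45 for GGT1, 0.44 for KRT8 and 0.38 for COL4A2 (limma, adjusted p = 0.0321 to 0.0441).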

How the results depend on the processing

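The edgeR alternative on recovered reads was not run, and limma-voom on recovered reads was used instead. Calls higher in 769-P and in ACHN numbered 4485 and 4591 with FPKM as deposited, 4579 and 4508 with median-ratio factors, 5504 and 3802 with upper-quartile factors (59.1% of calls higher in 769-P, beside 46.8%), 4159 and 4439 with limma-voom, and 3460 to 4224 and 4229 to 4776 when a library was left out. The replicate numbers did not pair the lines (correlations of same-numbered libraries -0.0572, -0.012 and 0.0396), and a replicate block gave 4044 and 4670 calls. The interaction of line and siRNA called 0 genes in limma without a block and 271 with a replicate block within each line, the block within lines chosen after seeing the data. 2-fold calls higher in 769-P were 1234 with a pseudocount of 1 and 1173 with 0.5 FPKM in all 6 libraries, and those higher in ACHN 1372 with the latter. Under si-NUF2 they were 1125 and 1742, and 1045 and 1245. With 0.5 FPKM in all 6 libraries fewer genes were tested, and list calls were 8 for renal factors, 9 for HOX genes, 7 for proximal tubule, 4 for clear cell and 3 for papillary markers, 8 for mesenchymal, 17 for matrix and 11 for remodelling genes, 18 for detoxification, 2 for MHC class II, 7 for chemokines, 3 for checkpoint ligands, 8 for complement and 0 for markers of other cells. At an adjusted p under 0.01 (limma) they were 10 for mesenchymal, 5 for integrin, 4 for checkpoint and 9 for complement genes, with 9 to 13 complement genes (lowest without 769-P replicate 3) and 4 to 8 checkpoint ligands (lowest without 769-P replicate 1) when a library was left out, and with no filter 4 for checkpoint ligands and 3 for other-cell markers. Some genes that were not called changed sign. With upper-quartile scaling HMGA2, ISG15 and VIM had differences of 0.16, 0.07 and 0.12. Leaving out a library gave ranges of -0.03 to 0.15 for BRK1, -0.22 to 0.29 for CD70, -0.01 to 0.23 for FANCD2, -0.46 to 0.27 for HMGA2, -0.49 to 0.27 for ISG15, -0.34 to 0.24 for KRT18, -0.75 to 0.01 for KRT8 and -0.23 to 0.00 for VIM. With FPKM as deposited, the chromosome medians of 1, 2, 6, 7, 9, 10, 11, 14 and 21 were 0.136, -0.273, 0.248, -0.469, 0.405, -0.129, 0.231, -0.408 and 0.259. Over genes with a mean of at least 5 FPKM, those of 1, 3, 4, 5, 6, 7, 8, 9, 10, 11, 13, 15 and 21 were 0.138, -0.014, 0.457, 0.521, 0.31, -0.588, 0.794, 0.515, -0.12, 0.338, 0.226, 0.189 and 0.336. Leaving out a library gave 0.346 to 0.404 for chromosome 9, -0.192 to -0.158 for 10 and -0.489 to -0.43 for 14. The cause of these shifts was not tested, except that scaling moves all genes together.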
